A study of Mus musculus with 9 samples.

Results

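The cytosolic ribosome is built from a large and a small subunit, each made of ribosomal RNA and a set of ribosomal proteins that are needed in nearly equal numbers. In mammals most ribosomal protein mRNAs begin with a short run of pyrimidines, the terminal oligopyrimidine or TOP motif, through which mTORC1 and the repressor LARP1 set how strongly they are translated when T cells are activated. Their transcripts are among the most abundant in an activated T cell, and their genes have many processed pseudogene copies in the mouse genome.

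The ribosomal protein genes described here were taken by name alone: every gene of the count table that begins with Rpl or Rps and a number, together with Rplp0, Rplp1, Rplp2 and Rpsa, without names that hold -ps and without the Rps6k kinases. The rule found 91 of the 24062 genes. By name, 48 were large subunit proteins, 33 small subunit proteins and 3 the acidic proteins of the stalk, the arm of the large subunit that calls in elongation factors. Another 6 members (Rps3a2, Rps3a3, Rps4l, Rpl37rt, Rps12l1 and Rpl6l) are annotated as processed pseudogenes, and Rps19bp1 is a partner of RPS19 that the name rule takes in although it is no ribosomal protein. Thus the label held by name for 84 of the 91 genes, among them Rpl7l1, a paralog that works in large subunit assembly. A filter on low values, above 10 CPM (counts scaled so that each library has the same total) in 1 library or more, passed 85 members, and Rpl3l, Rpl6l, Rpl39l, Rps4l, Rps12l1 and Rps27rt stayed below it.

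The study sorted mouse T cells by 2 fluorescent reporters, a transgenic Gfp reporter and the knock-in Foxp3-IRES-mRFP for Foxp3, for both of which the donor males, aged 6 to 10 weeks, were heterozygous. Naive CD4+ CD62L+ T cells from spleen were activated with anti-CD3 and anti-CD28 beads in all groups and sorted as live CD4+ cells after 72 hours. DP cells, positive for both reporters, and SPR cells, positive for Gfp alone, came from Th17 cultures, which held TGFβ (5 ng/ml) plus IL6 (20 ng/ml). SPF cells, positive for Foxp3 alone, came from Treg cultures, which held TGFβ (10 ng/ml) plus IL2 (5 ng/ml). SPF therefore differs from the other groups in culture as well as in sort. Each group had 3 biological replicates by its labels, and libraries followed the MARS-seq protocol, which reads the 3′ ends of transcripts. Since the Gfp reporter is a transgene and no antibodies blocked other fates, the groups are defined by reporter brightness in mixed cultures.

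Library totals were between 1495152 and 3759662 counts, and 20041 genes had counts. Foxp3 was 77.2 to 130 CPM in DP, 6.38 to 7.33 CPM in SPR and 209 to 244 CPM in SPF. Summed over 10 T cell markers, levels were 5529 to 6514 CPM in DP, 6042 to 7137 CPM in SPR and 7900 to 8409 CPM in SPF. The 8 B cell markers, 6 of them with counts and Blk and Cr2 at 0, summed to 4.21 to 6.02 CPM in DP, 3.01 to 7.18 CPM in SPR and 14.4 to 28.4 CPM in SPF. Over 6 erythroid markers the sums were 0.841 to 2.01 CPM in DP, 1.05 to 1.86 CPM in SPR and 0.454, 9.77 and 20.4 CPM in SPF replicates 1, 2 and 3. Counts of the 22 mitochondrial-encoded genes were uneven in DP, where replicates 1, 2 and 3 had 542, 2872 and 5214 CPM, against 238 to 550 CPM in SPR and 206 to 576 CPM in SPF. Because these are bulk samples, fewer cells of a type and less RNA per cell cannot be told apart.

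Promoter windows bear on how the members are alike in sequence. RefSeq gave 78 start sites for 66 of the 91 members (build GRCm38.p6), each with a window of 250 bases before and 50 bases after the start. The letters CCGGAAG, searched on both strands as the core of the site of ETS factors such as GABPA, stood in 34.6% of these windows against 8.86% of all 32851 RefSeq windows. The pyrimidine run CTTTCC, searched on the sense strand, was found in 38.5% of member windows and 14.1% of all windows. The letters AAGATGG (both strands, the core of the YY1 site) were found in 15.4% and 6.34%, and TATAAA (sense strand, the TATA box) in 7.69% and 8.32%. A match is only a run of letters, and the motifs other than TATAAA can share 2 or 3 bases at their ends. Windows of the same gene can overlap, as those of Rpl35a do, so that a site can be counted more than once.

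For the genes on which the results turn, 50 bases before and 20 bases from the start are given 5′ to 3′, with capitals marking any of the 4 motifs. Rpl22l1 (chr3:28805458-28805527, plus strand) and its paralog Rpl22 (chr4:152325676-152325745, plus strand) are set together because they differed in level and in spread, Rpl37a (chr1:72711210-72711279, plus strand) because it was called between DP and SPF, Rpl35 (chr2:39005112-39005181, minus strand) and Rps19 (chr7:24884626-24884695, plus strand) because DP and SPR did not overlap, and Rps15a (chr7:118116128-118116197, minus strand) because it varied widely within groups.
Rpl22l1: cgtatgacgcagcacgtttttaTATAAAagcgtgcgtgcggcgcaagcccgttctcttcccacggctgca
Rpl22: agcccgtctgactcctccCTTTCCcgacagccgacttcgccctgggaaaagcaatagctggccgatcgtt
Rpl37a: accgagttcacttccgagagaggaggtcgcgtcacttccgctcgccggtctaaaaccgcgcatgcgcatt
Rpl35: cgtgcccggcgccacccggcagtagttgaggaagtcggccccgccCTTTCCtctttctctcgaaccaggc
Rps19: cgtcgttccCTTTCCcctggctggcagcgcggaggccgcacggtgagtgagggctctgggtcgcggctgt
Rps15a: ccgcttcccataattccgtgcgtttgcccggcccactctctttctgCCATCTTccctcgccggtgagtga
Rpl22l1 has a TATAAA upstream of its start where Rpl22 has none in the stretch shown, and Rpl37a holds none of the 4 motifs in this stretch. In Rps15a the capitals are AAGATGG read on the opposite strand. Rpl22 and Rps19 have further start sites that are not shown. The other Rpl22 window holds a match to AAGATGG, and of the Rps19 stretches only the one shown holds capitals.

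The first measure is the share of all counts that came from the 91 genes together. It was 20.6%, 22.8% and 23.2% of the library in DP replicates 1, 2 and 3, against 23.9%, 23.8% and 25.6% in SPR and 22.5%, 26.3% and 23.6% in SPF. All 3 DP libraries lay below all 3 SPR libraries, whereas SPF overlapped both. The mean share was 22.2% ± 1.39 in DP, 24.4% ± 1.02 in SPR and 24.2% ± 1.95 in SPF (SD, n = 3 each). DP was 2.20 percentage points below SPR, which is a two-sided p = 0.1 in an exact permutation test, the smallest that 3 against 3 libraries allow. By the same exact test, DP was 1.93 points below SPF (p = 0.3) and SPR was 0.265 points above SPF (p = 0.8), a difference of 2646 CPM that was -1333 CPM with TMM-scaled library sizes. Adjusted over the 3 comparisons (Benjamini-Hochberg), these exact p-values were 0.3, 0.45 and 0.8. In CPM, the difference of DP from SPR was -21952, and -14009 without DP replicate 1. That of DP from SPF was -19306, but -11362 without DP replicate 1 and -8513 without SPF replicate 2.

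**Figure D1:**
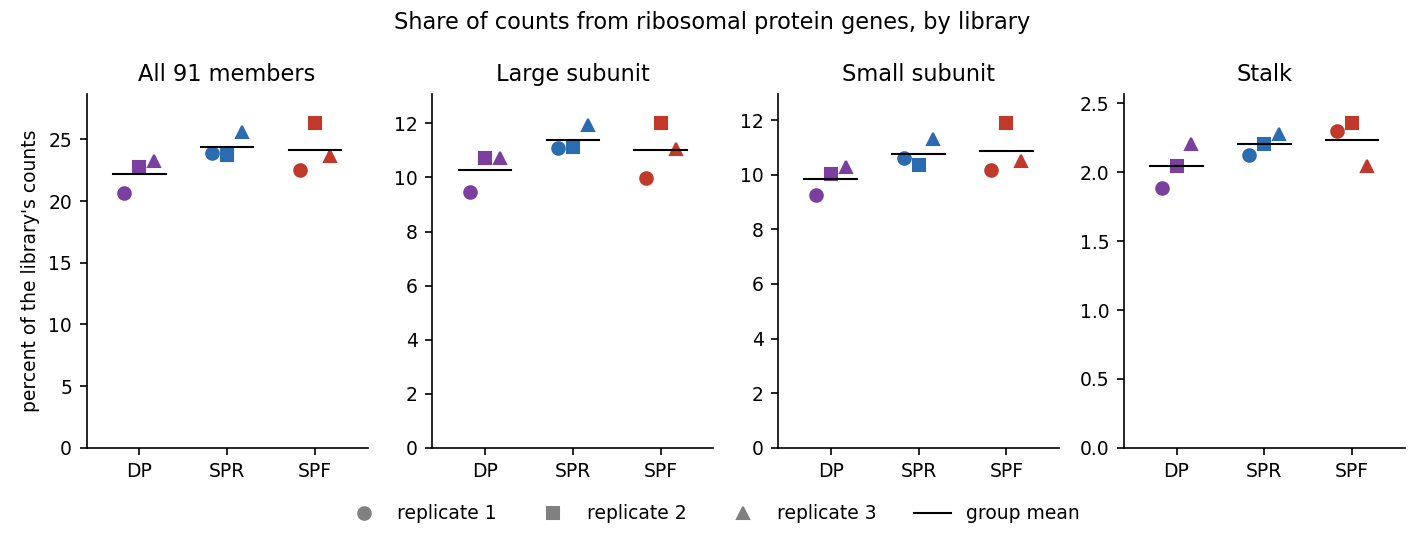
Percent of each library's counts (vertical axis) that came from all 91 ribosomal protein genes, the large subunit, the small subunit and the stalk, for DP, SPR and SPF cells. Symbols are replicates and lines are group means, and the DP libraries lie between 20.6% and 23.2% against 23.8% to 25.6% in SPR.

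DP and SPR libraries were paired by replicate number, though the labels do not say that a pair came from the same culture. Since these groups did not overlap, DP was bound to be lower in each pair, and the size of the difference, as DP minus SPR, was -3.26 points in pair 1, -0.963 in pair 2 and -2.36 in pair 3. Large subunit genes showed the same order, with 9.45%, 10.7% and 10.7% in DP against 11.1%, 11.1% and 11.9% in SPR and 9.97%, 12.01% and 11.05% in SPF. Small subunit genes were at 9.25%, 10.0% and 10.3% in DP, 10.6%, 10.4% and 11.3% in SPR and 10.2%, 11.9% and 10.5% in SPF. In both subunits DP and SPR did not overlap. Stalk genes were at 1.89%, 2.05% and 2.21% in DP, 2.13%, 2.20% and 2.28% in SPR and 2.30%, 2.36% and 2.05% in SPF, and here all 3 groups overlapped.

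Levels of single members spanned several orders of magnitude. The mean over 9 libraries was above 1000 CPM for 61 members and above 100 CPM for 77, and 59 of the 100 genes with the highest mean level in the table were members. Among the 5 highest tested members by mean CPM were Rplp1, a stalk protein, Rps18, Rps3, which lines the mRNA entry, and Rpl4. Rplp1 averaged 10304 CPM in DP, 11335 CPM in SPR and 11014 CPM in SPF. The 5 lowest tested members were Rpl39, Rps19bp1, Rpl7l1, Rps3a3 and Rpl24, of which Rpl24, a large subunit protein, was at 7.36 to 19.6 CPM in DP, 12.5 to 17.1 CPM in SPR and 4.65 to 8.62 CPM in SPF. MARS-seq counts 3′ ends, so these counts were not divided by transcript length, and the order of genes is an order of assigned counts rather than of molecules.

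**Figure D2:**
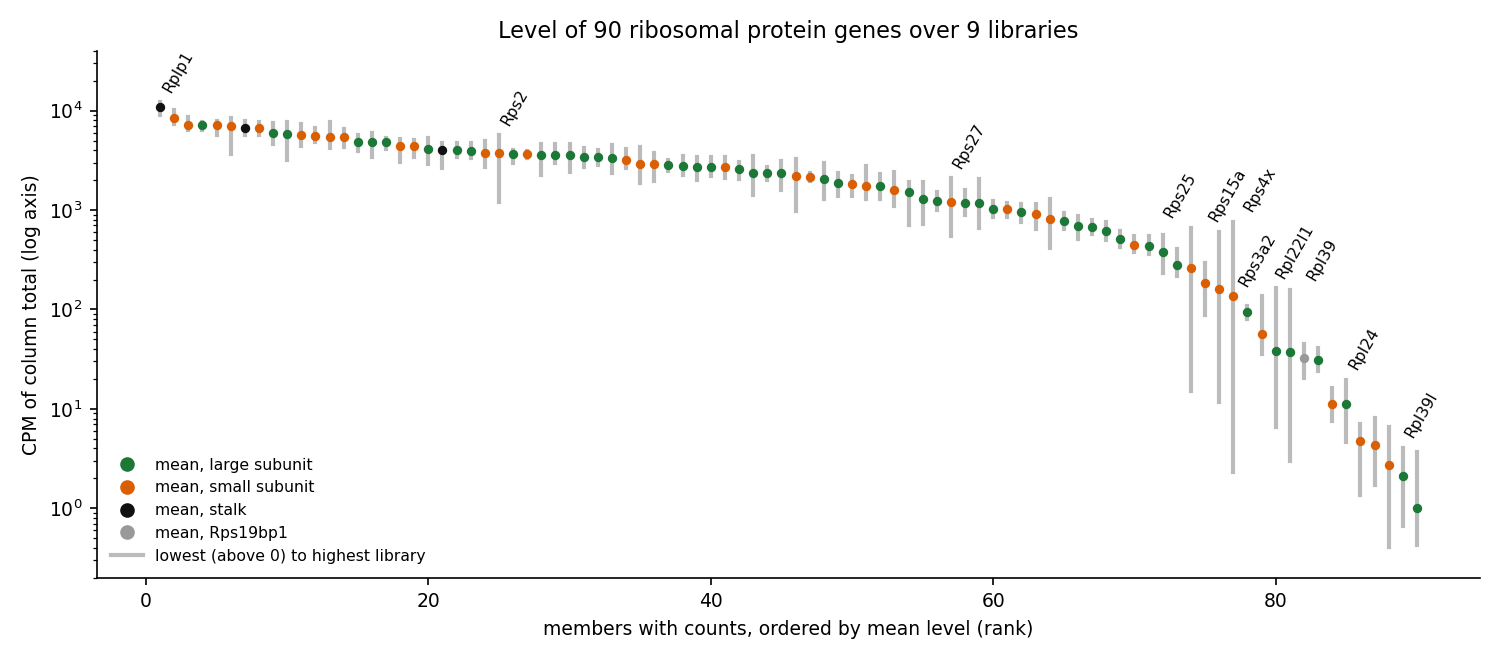
Mean CPM (log axis) of the 90 members with counts, ordered by level, with grey bars from the lowest library above 0 to the highest of the 9 libraries. Rps25, Rps15a and Rps4x stand out with long bars among the members above 100 CPM.

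Many members share their 3′ ends with other annotated transcripts, and reads there could be split or lost in counting. Of the 84 ribosomal protein genes without pseudogenes and Rps19bp1, 53 shared at least 50% of the 50-base windows in the last 300 bases with a transcript of another gene, 14 shared some and 17 shared none. Median levels were 2222, 2770 and 3663 CPM in these sets, as a description of genes that also differ in other ways. The 231 genes with -ps in their name, 209 of them with counts, summed to 0.170% to 0.220% of counts in DP, 0.176% to 0.225% in SPR and 0.177% to 0.280% in SPF. Small nucleolar RNAs lie within several host members as well, and whether reads were counted by strand is not stated in the protocols, so a member cannot be told apart from an antisense neighbour such as Gm33051 at Rpl22l1.

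The first comparison asks how DP cells differ from SPR cells of the same Th17 culture conditions. With edgeR over the 9 libraries, none of the 85 tested members was called at an adjusted p under 0.05, and 0.0107% of all tested genes were (Foxp3 alone). DESeq2 called 0 members as well, with 0.473% of all tested genes called (0.409% higher and 0.0645% lower in DP). Of the 85 fold changes, 73 were lower in DP and 12 higher, with a median log2 fold change of -0.17 against -0.01 over all 9310 tested genes. In the large subunit 39 of 46 were lower, in the small subunit 27 of 32 and in the stalk 3 of 3. Since members share libraries and may move together, these counts describe the 6 libraries and are no test. Scaled by library totals alone, 68 members were lower, with a median of -0.12 against 0.04 over all genes.

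The size of that shift rested in part on single libraries. Without DP replicate 1, whose summed share was the lowest, 63 members were lower and the median was -0.09, while without DP replicates 2 and 3 together, chosen after seeing their mitochondrial-encoded counts, 81 were lower and the median was -0.29. By pairs, on TMM-scaled levels, 74, 50 and 65 of the 85 members were lower in DP in pairs 1, 2 and 3, against 50.1%, 51.4% and 51.9% of all tested genes. In all 3 pairs, 31 members were lower and 0 higher, which is 36.5% of members against 19.4% of all tested genes for the lower ones, and 17.1% of all genes were higher in each pair.

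**Figure D3:**
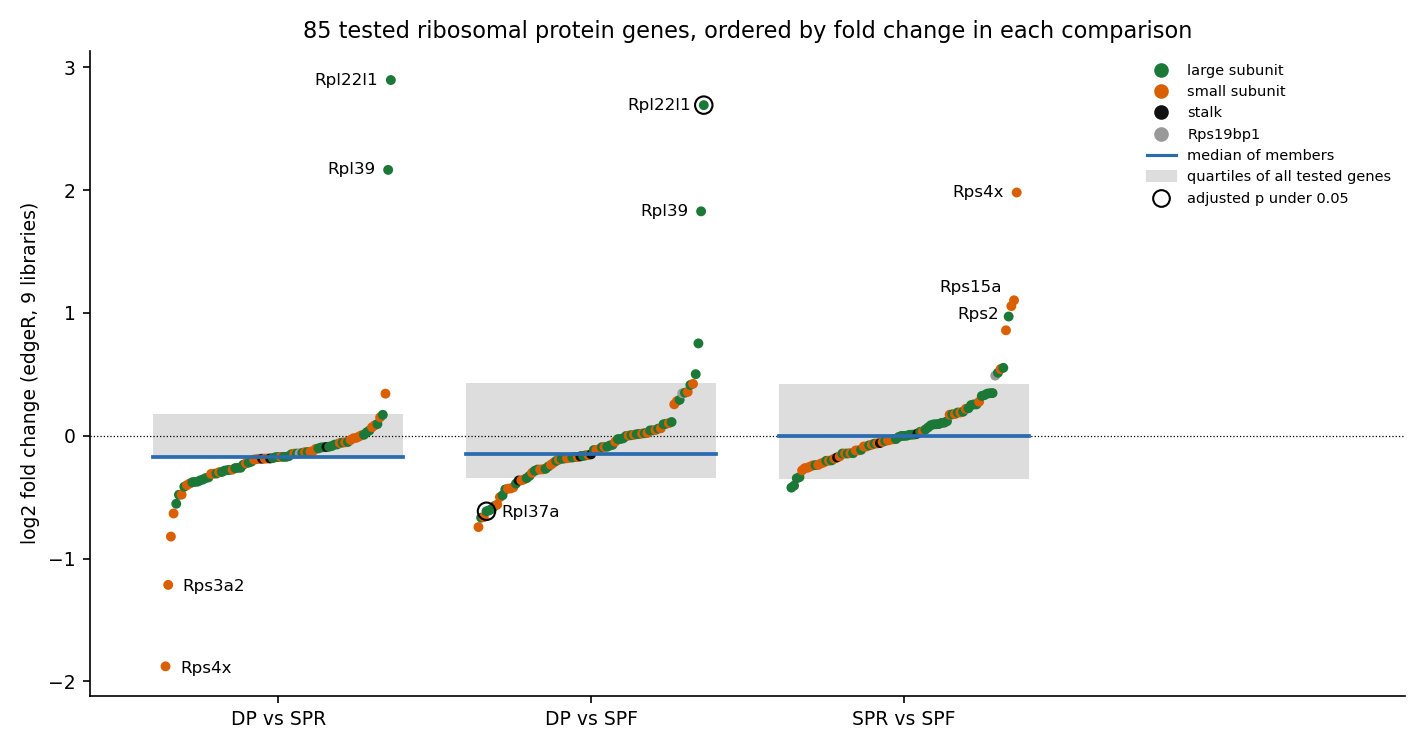
Log2 fold changes (vertical axis) of the 85 tested members in the 3 comparisons, each ordered from lowest to highest and coloured by subunit, with the members' median as a blue line and the range between the quartiles of all tested genes in grey. The median is -0.17 for DP vs SPR, -0.15 for DP vs SPF and close to 0 for SPR vs SPF, and circles mark the called Rpl22l1 and Rpl37a.

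Between DP and SPR, CPM did not overlap for 8 members, all lower in DP, which is 9.41% of 85 against 5.41% of all tested genes. No member lay wholly higher in DP, where 9.04% of all genes did. The 8 were Rpl35, Rpl37a, Rpl41, Rpl9, Rps16, Rps19, Rps2 and Rps29, 4 of each subunit. Rps2, a protein at the mRNA entry of the small subunit, showed the widest gap, with 3015, 3088 and 4394 CPM in DP, 5277, 5672 and 4845 CPM in SPR and 1199, 2570 and 3688 CPM in SPF. Rps2 was therefore highest in SPR, and its DP and SPF libraries overlapped. In DP against SPR its log2 fold change was -0.63 (SE 0.332, adjusted p = 0.817 from edgeR), and -0.66 with pairing (SE 0.167, adjusted p = 0.0555). Paired DESeq2, which called 1.58% of all tested genes (1.01% higher and 0.569% lower in DP), called Rps2, Rpl29 and Rps3a2 lower in DP, and paired edgeR called Rps2 when pair 3 was left out. Rpl29, a large subunit protein, had 1244, 710 and 1564 CPM in DP, 1593, 1536 and 1868 CPM in SPR and 1257, 1912 and 1888 CPM in SPF, and paired edgeR gave it -0.62 on the log2 scale (adjusted p = 0.0847, SE 0.174). Rps2 shares 79.3% of its end windows with transcripts of 51 other genes and Rpl29 69.7% with those of 44, so that their counts are uncertain.

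Rps19, in which mutations cause Diamond-Blackfan anaemia in humans, was at 5431, 4385 and 5418 CPM in DP, 5521, 5774 and 6509 CPM in SPR and 5352, 7396 and 5842 CPM in SPF. Only a narrow gap parted DP from SPR, and SPF overlapped both. Rpl35, a protein near the exit of the peptide tunnel, was at 426, 456 and 449 CPM in DP, 502, 567 and 584 CPM in SPR and 472, 577 and 609 CPM in SPF. All 3 DP libraries were below every other library. The log2 fold change of Rpl35 against SPR was -0.36 (SE 0.165, adjusted p = 0.756 from edgeR). Rpl35 shares 96.0% of its end windows with transcripts of 8 other genes and Rps19 56.6% with those of 13, so that their counts are uncertain too.

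**Figure D4:**
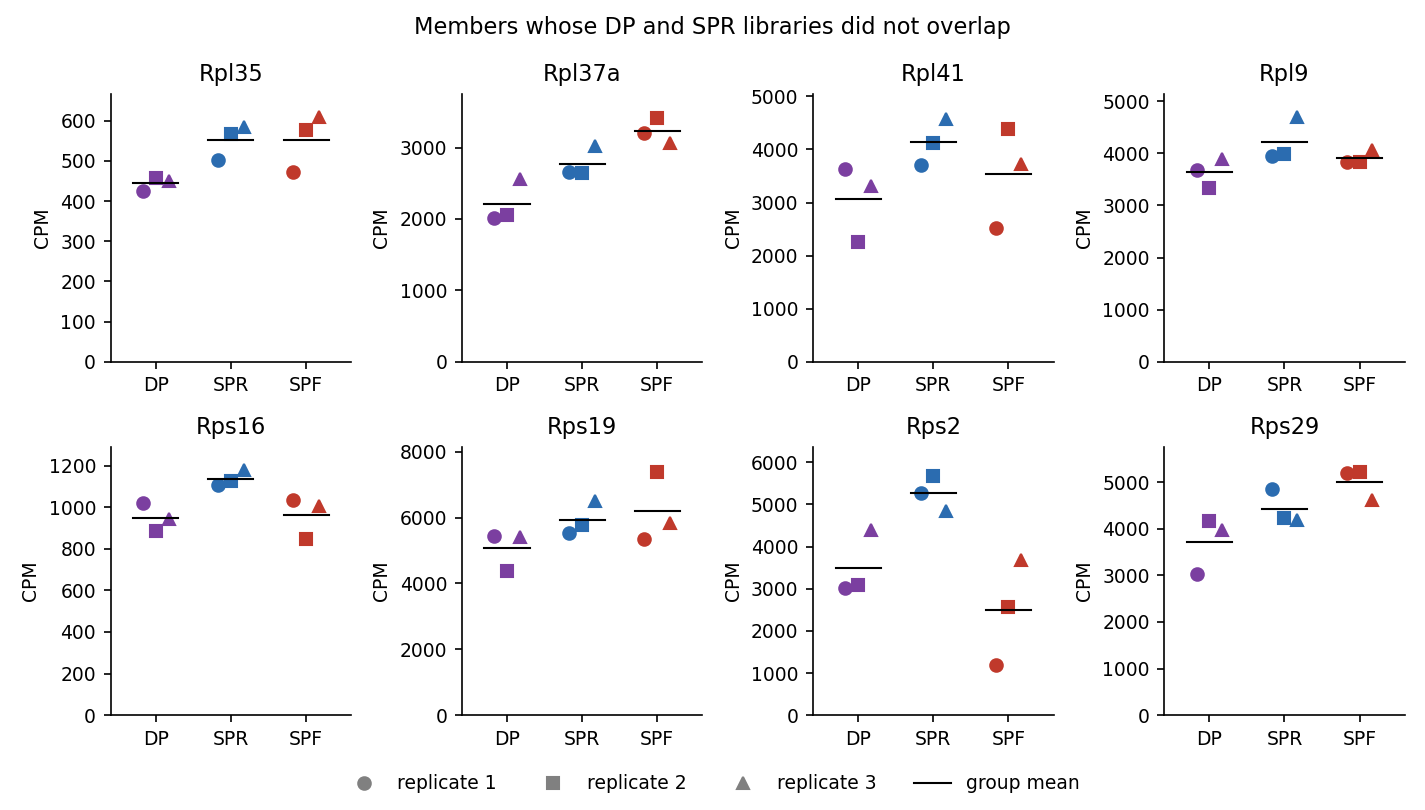
CPM by library (vertical axes from 0) for the 8 members whose DP and SPR libraries did not overlap, in DP, SPR and SPF, with replicates as symbols and group means as lines. DP lies below SPR in each panel by the rule that chose them, and Rps2 is the only panel where SPF averages below DP.

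With the replicate number as a block over the DP and SPR libraries, edgeR called 3.48% of all tested genes (1.51% of all tested genes were called lower in DP) and 1 of the 85 members. That member was Rps3a2 (chr14:88123017-88123808), an intronless processed pseudogene of Rps3a1. Rps3a2 had 39.96, 35.96 and 40.13 CPM in DP, 39.4, 81.8 and 136 CPM in SPR and 48.5, 43.3 and 49.3 CPM in SPF. SPR replicates 2 and 3 were high, and SPR replicate 1 lay within the DP range. Its paired log2 fold change was -1.04 (SE 0.254, adjusted p = 0.0455), which was lost without pair 3 (-0.65, adjusted p = 0.335), and over 9 libraries the adjusted p was 0.493. Rps3a2 shares 70.9% of its end windows with transcripts of 9 other genes. Rps3a1 itself, the small subunit protein, was at 1995, 2086 and 1946 CPM in DP, 2055, 2316 and 2000 CPM in SPR and 2304, 2298 and 2331 CPM in SPF, so that DP and SPR overlapped and SPF lay above DP.

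The second comparison sets DP against SPF cells, which differ in culture and in sort. Here edgeR called 2 of the 85 members, 1 higher and 1 lower in DP, or 2 of 85 where 13.7% of all tested genes were called (7.55% higher and 6.18% lower in DP). DESeq2 called 8, of which Rpl22l1 was higher in DP and 7 (Rpl21, Rpl37a, Rpl37rt, Rps14, Rps15, Rps29 and Rps3a1) were lower, where it called 17.4% of all tested genes (9.09% higher and 8.33% lower). Of all members 56 were lower and 29 higher, with a median log2 fold change of -0.15 against 0.01 over all tested genes. Scaled by library totals, where the median over all genes moved to 0.08, 51 members were lower and their median was -0.08. B cell markers were higher in all 3 SPF libraries than in any DP library and erythroid markers in 2 of the 3, and their part was not tested. The median was also -0.07 without DP replicate 1, -0.08 without SPF replicate 2 and -0.30 without DP replicates 2 and 3 together.

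Rpl37a, a zinc-binding protein of the large subunit (chr1:72711290-72713813), was the member called lower in DP. It had 2013, 2057 and 2562 CPM in DP, 2656, 2648 and 3017 CPM in SPR and 3200, 3408 and 3066 CPM in SPF, and all 3 groups lay apart in that order. Its log2 fold change of DP against SPF was -0.61 (SE 0.162, adjusted p = 0.0311 from edgeR), and the adjusted p was 0.107 without DP replicate 2, 0.0898 without DP replicate 1, 0.108 without SPF replicate 2, 0.0586 without SPF replicate 1 and 0.0518 without SPR replicate 1. Against SPR the log2 fold change of Rpl37a was -0.38 (adjusted p = 0.742), and SPR against SPF gave -0.24 (adjusted p = 0.338). Only 4.38% of its end windows are shared.

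Rpl22l1, the paralog of Rpl22 that can take its place in the large subunit (chr3:28805436-28807424), was the member called higher in DP. It had 9.68, 163 and 94.97 CPM in DP, 18.8, 7.32 and 8.51 CPM in SPR and 19.5, 6.51 and 13.5 CPM in SPF. DP replicates 2 and 3 stood far above every other library, and DP replicate 1 lay within the range of SPR and SPF. The log2 fold change of DP against SPF was 2.69 (SE 0.783, adjusted p = 0.045 from edgeR), and without DP replicates 2 and 3 together it was -0.54. The adjusted p was above 0.05 without any 1 of DP replicates 2 and 3 (0.194 and 0.0919), SPR replicates 1, 2 and 3 (0.0549, 0.0519 and 0.0581) and SPF replicates 1, 2 and 3 (0.0691, 0.146 and 0.0658), and with the replicate block over 9 libraries it was 0.0883. Without DP replicate 1, the adjusted p against SPF was 0.00439. Against SPR the log2 fold change was 2.90 (adjusted p = 0.468 from edgeR, and 0.0344 without DP replicate 1), and 2.48 with pairing (adjusted p = 0.0675). The paired adjusted p from edgeR was 4.25e-05, 5.77e-06 and 0.335 without pairs 1, 2 and 3. Rpl22l1 shares 59.8% of its end windows with transcripts of 3 other genes.

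Rpl22, which in mice represses Rpl22l1 and is needed for αβ T cell development, was at 2241, 3466 and 3211 CPM in DP, 2494, 2514 and 3354 CPM in SPR and 2309, 2951 and 2689 CPM in SPF, with overlap between all groups. Like Rpl22l1, it was lowest of the DP libraries in replicate 1 and highest in replicate 2. Rpl39, a small protein of the exit tunnel, resembled Rpl22l1, with 12.2, 57.6 and 156 CPM in DP, 31.1, 3.01 and 13.6 CPM in SPR and 23.1, 10.7 and 26.5 CPM in SPF. Again only DP replicates 2 and 3 were high, and Rpl39 was not called (log2 fold change 1.83 against SPF, adjusted p = 0.162, and 2.17 against SPR, adjusted p = 0.691, both from edgeR). Those 2 libraries are also the ones with high mitochondrial-encoded counts. Over the 9 libraries Pearson's r of log2(CPM + 1) with the mitochondrial-encoded sum was 0.948 for Rpl22l1 and 0.909 for Rpl39. Among the other tested members it was between -0.751 (Rpl37rt) and 0.521 (Rps13), with -0.742 for Rps12. In the 8 members that lay wholly lower in DP than in SPR it was between -0.703 (Rps19) and 0.0103 (Rps2). These values are a description over libraries of 3 groups that differ in depth. The part of the mitochondrial-encoded counts in these results was not tested.

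Between DP and SPF, 11 members did not overlap and were lower in DP, 12.9% of 85 against 12.3% of all tested genes, and 2 (Rpl14 and Rpl7l1) were wholly higher in DP, 2.35% against 19.2%. Besides Rpl37a, Rpl35, Rps29 and Rps3a1, the lower ones included Rpl21, Rpl34, Rpl37rt, Rps14, Rps15 and Rps3a2. Rps29, a zinc-finger protein of the small subunit, was at 3021, 4170 and 3972 CPM in DP, 4856, 4227 and 4190 CPM in SPR and 5192, 5224 and 4616 CPM in SPF. DP was lowest and SPF mostly highest in it, with a log2 fold change against SPF of -0.50 (SE 0.165, adjusted p = 0.0688 from edgeR). Rps15, of the small subunit head, was at 2216, 1892 and 2788 CPM in DP, 2661, 2902 and 3253 CPM in SPR and 3031, 4275 and 3070 CPM in SPF, and its log2 fold change against SPF was -0.66 (SE 0.211, adjusted p = 0.0608). Neither passed the threshold in that fit, whereas DESeq2 called both, and edgeR called Rps15 with no filter, without DP replicate 3 and without SPF replicate 3. Rps15 and Rps29 share 55.8% and 48.6% of their end windows with transcripts of other genes.

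The third comparison, SPR against SPF, contrasts the Th17 and Treg cultures in cells positive for a single reporter. No member was called by edgeR where 16.7% of all tested genes were (9.14% higher and 7.58% lower in SPR). DESeq2 called 2, Rpl14 and Rps2, both higher in SPR, and 19.7% of all tested genes (10.3% higher and 9.38% lower). Members were evenly split, with 42 higher and 43 lower in SPR and a median log2 fold change that rounds to 0 in members and in all genes. Large subunit genes were higher in 29 of 46 and small subunit genes in 10 of 32, a split that was not tested. Those that lay wholly higher in SPR were 12 (14.1% of 85, against 19.9% of all tested genes) and wholly lower 3 (3.53%, against 17.1%).

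Rpl14, a large subunit protein whose last 300 bases share no window with another gene, was nearest to a call. Its levels were 3033, 4500 and 3384 CPM in DP, 4320, 3636 and 3664 CPM in SPR and 2605, 2349 and 2850 CPM in SPF. Both groups from the Th17 culture lay above SPF, and they overlapped each other. The log2 fold change of SPR against SPF was 0.55 (SE 0.174, adjusted p = 0.0512 from edgeR), and that of DP against SPF was 0.41 (adjusted p = 0.137). For Rps2, the log2 fold change of SPR against SPF was 1.06 (SE 0.334, adjusted p = 0.0525).

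Within groups, the highest replicate was a median of 1.38, 1.20 and 1.28 times the lowest over the tested members in DP, SPR and SPF, against 1.46, 1.37 and 1.49 times over the 9095 tested genes with counts in every library. Most of those genes are less abundant than the members. Among genes that averaged at least 100 CPM, the medians were 1.38, 1.19 and 1.28 times in DP, SPR and SPF over 77 members, against 1.36, 1.26 and 1.35 times over all 1869 such genes. A ratio above 5 in some group was found for 5 of the 85 members, 5.88% against 6.61% of those 9095 genes, and at 100 CPM or more for 3.90% of members against 2.25% of genes. Rpl22l1 and Rpl39 are among them, and the others, all of the small subunit, were Rps4x, Rps15a and Rps25.

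Rps4x, the X-linked form of a protein of the mRNA entry side, had 12.6, 40.5 and 180 CPM in DP, 26.5, 6.46 and 767 CPM in SPR and 85.7, 2.33 and 119 CPM in SPF. SPR replicate 3 was highest, and SPR replicate 2 and SPF replicate 2 were lowest. Rps15a, a core protein of the small subunit, had 48.4, 208 and 158 CPM in DP, 78.9, 11.6 and 604 CPM in SPR and 179, 61.9 and 86.9 CPM in SPF. Rps25, known for its role in translation from internal entry sites, had 262, 154 and 337 CPM in DP, 111, 15.1 and 664 CPM in SPR and 274, 93.0 and 454 CPM in SPF. In all 3 genes SPR replicate 3 was the highest library and SPR replicate 2 the lowest or, for Rps4x, next to the lowest. Their highest SPR replicate was 119, 52.0 and 44.1 times the lowest, and none was called in any comparison of the 9-library fit. In likeness to Rps4x over 9 libraries (Pearson's r of log2(CPM + 1), as a description), the tested members nearest to it included Rps24 at 0.806, Rps15a at 0.803, Rps25 at 0.772 and Rps27 at 0.722, which are also of the small subunit. SPR replicate 3 was also the deepest library, and the part of depth was not tested. Rps4x, Rps15a and Rps25 share 62.2%, 77.3% and 43.8% of their end windows with transcripts of other genes.

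**Figure D5:**
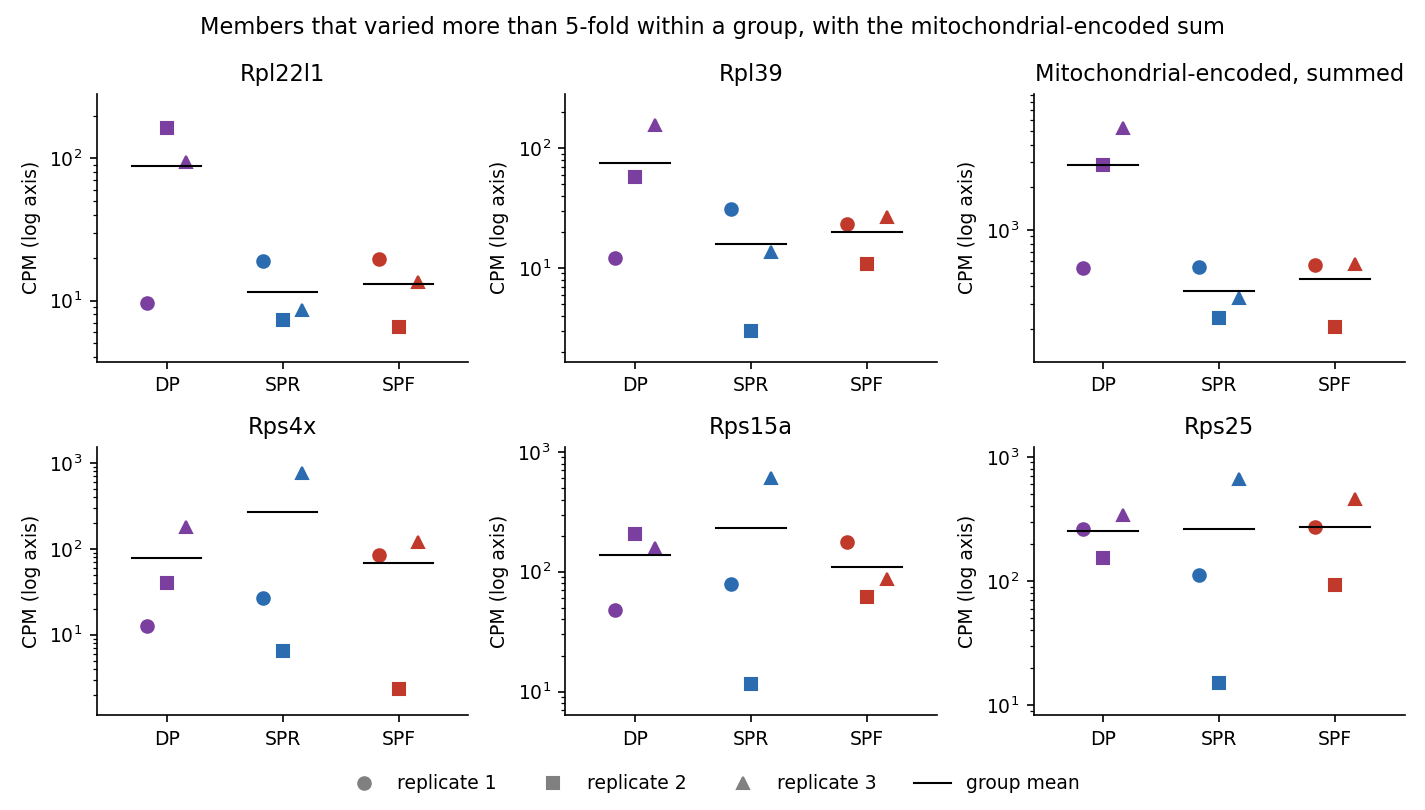
CPM by library (log axes) for Rpl22l1, Rpl39, Rps4x, Rps15a and Rps25, with the summed mitochondrial-encoded counts, in DP, SPR and SPF. DP replicates 2 and 3 are high for Rpl22l1, Rpl39 and the mitochondrial-encoded sum, and SPR replicate 3 is high for the 3 small subunit genes.

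Another member stood apart in a single library. Rps12, a small subunit protein, was at 6612, 7449 and 3702 CPM in DP, 7444, 7366 and 7530 CPM in SPR and 6600, 8419 and 7422 CPM in SPF, so that only DP replicate 3 was low. That library had the fewest counts and the most mitochondrial-encoded counts, and their part was not tested. Rps12 shares 100% of its end windows with transcripts of 23 other genes.

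Of the paralogs listed here, Rpl3l and Rpl39l, known for use in particular tissues, were at 0 or a few CPM. Rpl3l, the form of Rpl3 in heart and skeletal muscle, had 0 counts in all 9 libraries, against 2854 to 4047 CPM for Rpl3. Rpl39l, the form of Rpl39 in mouse male germ cells, was at 0.669 to 4.09 CPM in DP, 1.74 to 3.44 CPM in SPR and 0 to 3.25 CPM in SPF. Rpl7l1, a paralog of Rpl7 that works in large subunit assembly, was at 30.1 to 41.3 CPM in DP, 24.2 to 41.3 CPM in SPR and 24.0 to 27.4 CPM in SPF. Rps27l, the p53-induced paralog of Rps27, was at 142 to 290 CPM in DP, 169 to 268 CPM in SPR and 88.0 to 174 CPM in SPF, and Rpl36al, the autosomal form of the X-linked Rpl36a, at 236 to 408 CPM in DP, 299 to 311 CPM in SPR and 215 to 252 CPM in SPF. None of these was called in a comparison, and Rpl3l and Rpl39l were not tested. Rps27 was at 788 to 989 CPM in DP, 548 to 2087 CPM in SPR and 921 to 2038 CPM in SPF, and Rpl36a at 1130 to 1359 CPM in DP, 1179 to 1915 CPM in SPR and 727 to 1327 CPM in SPF. Rps19bp1 was at 23.4 to 45.4 CPM in DP, 33.8 to 42.2 CPM in SPR and 20.4 to 31.1 CPM in SPF.

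The stalk proteins and Rpsa, the small subunit protein also known as the laminin receptor precursor, overlapped between groups throughout. Rplp0 was at 6159, 7494 and 5988 CPM in DP, 7267, 6064 and 6859 CPM in SPR and 7893, 7195 and 5639 CPM in SPF. Rplp2 was at 3601, 2619 and 4599 CPM in DP, 3364, 4038 and 4517 CPM in SPR and 4689, 4294 and 4314 CPM in SPF. Rpsa was at 5718, 5632 and 7134 CPM in DP, 6963, 6809 and 6578 CPM in SPR and 6905, 7645 and 6716 CPM in SPF. Log2 fold changes of these 3 genes and of Rplp1 were between -0.19 and -0.09 for DP against SPR.

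Some ribosomal proteins do not carry an Rpl or Rps name. Fau, whose product is cut into RPS30 and a ubiquitin-like protein, was at 1282, 1447 and 2314 CPM in DP, 1986, 1880 and 2137 CPM in SPR and 2366, 1821 and 2061 CPM in SPF. Rack1, the scaffold on the small subunit, was at 6095, 6758 and 7053 CPM in DP, 6997, 6725 and 7067 CPM in SPR and 6600, 7020 and 6453 CPM in SPF. Both overlapped between groups, and neither was called.

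The list of translation factors and other mRNAs with a TOP motif held 25 tested genes. For DP against SPR, edgeR over 9 libraries called 0 of them, with 21 of 25 lower in DP and a median of -0.12. For DP against SPF it called 1 higher and 1 lower (Vim and Eif3h), where 13.7% of all tested genes were called. For SPR against SPF it called 3 higher (Eef1g, Gas5 and Pabpc4), where 16.7% of all tested genes were called. DESeq2 called 1 gene of this list, Eif3e, for DP against SPR. Elongation factor genes Eef1a1 and Eef2 and the growth-linked Tpt1 were not called, with log2 fold changes for DP against SPR of -0.03, -0.27 and -0.12. Eif3e, a subunit of initiation factor 3, was called higher in DP with pairing (log2 fold change 2.32, adjusted p = 0.011, where 1.97% of all tested genes were called higher), on 7.15, 53.5 and 76.9 CPM in DP, against 6.63, 6.46 and 9.84 CPM in SPR, and so was high in the same 2 DP libraries as Rpl22l1. Larp1, the repressor of TOP mRNAs, was at 39.5 to 56.4 CPM in DP, 49.5 to 59.8 CPM in SPR and 41.3 to 63.3 CPM in SPF and was not called.

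Ribosome assembly in the nucleus and its control by Myc and mTORC1 were read from lists of their own. Of 26 tested nuclear assembly factors, 0 were called for DP against SPR (0 by DESeq2, median log2 fold change -0.01). Against SPF, 8 were called higher in DP (median 0.87) and 9 higher in SPR (median 0.78), with none lower. Of all tested genes, 7.55% were called higher in DP than in SPF and 9.14% higher in SPR than in SPF. Nop58, a core protein of small nucleolar particles, was at 84.1, 108 and 84.3 CPM in DP, 65.6, 67.6 and 60.6 CPM in SPR and 27.2, 39.1 and 36.2 CPM in SPF, and was called against SPF from both DP (log2 fold change 1.35, adjusted p = 0.00169) and SPR (0.89, adjusted p = 0.00934). Myc, which drives ribosome production, was called higher in DP than in SPF (log2 fold change 0.79, adjusted p = 0.0409), at 446, 365 and 308 CPM in DP, 337, 369 and 299 CPM in SPR and 145, 205 and 263 CPM in SPF. Eif4ebp1, the inhibitor of initiation controlled by mTORC1, was called higher in DP than in SPF (1.17, adjusted p = 0.00875) and in SPR than in SPF (1.94, adjusted p = 0.00049), and lower in DP than in SPR with pairing (-0.75, adjusted p = 0.0176). Mitochondrial ribosomal proteins, which serve another ribosome, had 0 of 70 called for DP against SPR (0 by DESeq2), with a median log2 fold change of -0.01. Against SPF, 4 of 70 were called higher in DP and 4 of 70 in SPR, no larger a share than the 7.55% and 9.14% of all tested genes. The comparisons against SPF share the SPF libraries, and the difference between gene lists was not tested.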

How the data were processed

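RNA of sorted DP, SPR and SPF cells (3 biological replicates each by the labels) was sequenced by MARS-seq on an Illumina NextSeq 500. The authors deposited raw counts per gene, named by symbol, from reads aligned to mm10, and their processing notes name cutadapt, STAR, SAMtools and HTSeq, with neither versions, annotation nor the use of strand or molecular identifiers given in the sources used here. Counts on 1 line with no gene name and 1 column of no sample were left out. The members and all gene lists were chosen with earlier results of these data known.

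Levels are CPM of the column total. Genes above 10 CPM in 1 library or more (9310) were tested, by the rule the study states, which kept more genes there, with edgeR 4.0.16 in R 4.3.3 (TMM factors, quasi-likelihood test, Benjamini-Hochberg adjustment over all tested genes, adjusted p under 0.05). The 9 libraries shared 1 estimate of the spread, without a replicate block. P-values measure the spread between these samples, which the study calls independent biological repeats. Same-numbered DP and SPR libraries deviated together from their group means (correlations 0.222, 0.401 and 0.407 in pairs 1, 2 and 3), so the block fit of these 6 libraries is given beside a result where it changed a call, whereas correlations with SPF were between -0.151 and 0.124. Summed CPM were compared with a two-sided exact permutation test in SciPy 1.17.1. The edgeR fit without a block was tested on simulated counts, for DP against SPR alone. Shared 3′ ends were searched in GENCODE M21 transcripts (GRCm38), where all 91 members were found by name, and promoter windows were taken from RefSeq. A single count was worth between 0.266 and 0.669 CPM, which limits members of a few CPM. Counts are of reads or tags, with counting error as a lower limit on their uncertainty.

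Named are the called members of each comparison and of the paired fit, and tissue-restricted or other paralogs with their partners. Named as well are the stalk proteins and Rpsa, the 5 highest and 5 lowest tested members, Fau and Rack1. Called genes of the lists and Eef1a1, Eef2, Tpt1, Larp1 and Myc complete the set. Members that did not overlap between groups, varied within groups, were called by DESeq2 alone or have roles outside the ribosome were named after their values were seen. Some genes that these rules name are not reported here. Alternatives tried were RLE factors, DESeq2 1.42.0, library totals alone, TMM without members, no filter, edgeR's own filter (10037 genes), no mitochondrial-encoded genes, 2 groups alone, the replicate block and each library left out.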

Additional observations from a re-analysis of the deposited data

How the results depend on the processing

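For DP against SPR, where no member was called, no filter gave 5 and the replicate block on DP and SPR libraries gave 1. With that block, library totals gave 2, TMM without members 1, DESeq2 3 and each pair left out 2 to 8. Leaving out single libraries from the 9 gave 0 to 1. Over all genes, 1 of 9310 was called in the main fit, 211 of 20041 with no filter and 324 of 9310 with that block. In the block, library totals gave 346, TMM without members 321, DESeq2 147, and pairs 1, 2 and 3 left out 130, 447 and 120. Single libraries left out gave 1 to 6. The no-filter edgeR fit calls for care, since its adjusted p for Rpl22l1 was 7.96e-22, against 0.468 in the main fit. For DP against SPF, with 2 called, DESeq2 gave 8, no filter 7, the 2 groups alone 0, and single libraries left out 0 to 4. Over all genes, 1278 were called in the main fit, 1620 with DESeq2 and 2137 with no filter. The 2 groups alone gave 855 of all genes, and single libraries left out gave 553 to 1822. Without DP replicates 2 and 3 together, an alternative chosen after seeing the data, the log2 fold change of Rpl22l1 turned to -0.54 against SPF and -0.34 against SPR. For SPR against SPF, with 0 called, DESeq2 gave 2, library totals 2, no filter 4 and the 2 groups alone 1. The replicate block over 9 libraries gave 1, and single libraries left out gave 0 to 1. Over all genes, 1557 were called in the main fit, 1829 with DESeq2, 1534 with library totals and 2479 with no filter. The 2 groups alone gave 1300 of all genes, that block 1769, and single libraries left out 836 to 2059. The replicate block over 9 libraries gave 0 for DP against SPR and 2 for DP against SPF (Rpl37a and Rpl37rt, with Rpl22l1 lost). It called 7 and 1410 of all 9310 tested genes in these comparisons. The other alternatives named above kept the counts of called members within 1.5 times. The cause of these changes was not tested. Summed CPM moved by less than the spread between replicates under every alternative run, including 1 added later, without the pseudogenes and Rps19bp1. Its difference ranged between -27007 and -14009 CPM for DP against SPR, between -27511 and -8513 CPM for DP against SPF and between -5559 and 13440 CPM for SPR against SPF when single libraries were left out. Having 3 libraries a group limits every count here, and 3′ ends shared with transcripts of other genes limit single members.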

Other observations

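Several members are known for roles beyond building the ribosome. Rpl5 and Rpl11 bind Mdm2 together with 5S ribosomal RNA and so link ribosome assembly to p53. Rpl5 was at 2212, 2572 and 1766 CPM in DP, 2394, 3082 and 2700 CPM in SPR and 1594, 2251 and 2476 CPM in SPF, and Rpl11 at 2979, 3854 and 3816 CPM in DP, 3454, 3541 and 4003 CPM in SPR and 3335, 4044 and 3939 CPM in SPF. For both, all groups overlapped, and neither was called by edgeR in any comparison of the 9 libraries. Rps6, the target of the S6 kinases below mTORC1, was at 459, 374 and 481 CPM in DP, 420, 411 and 444 CPM in SPR and 455, 550 and 422 CPM in SPF, with overlap between all groups. Rpl13a, which in humans also serves a complex that silences inflammatory mRNAs, was at 686, 607 and 595 CPM in DP, 788, 777 and 651 CPM in SPR and 577, 728 and 736 CPM in SPF. Rps27a, which encodes ubiquitin fused to a small subunit protein, was at 898, 532 and 1303 CPM in DP, 696, 744 and 652 CPM in SPR and 837, 418 and 1264 CPM in SPF. Its replicate 2 was the lowest library in DP and in SPF, and it was the tested member with the most negative correlation to the summed level of all members over the 9 libraries (Pearson's r of log2 values -0.478, a description). Over members of at least 100 CPM without pseudogenes, 76 genes, the median r between 2 members was 0.144, as a description over libraries of 3 groups.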
